A study of Mus musculus with 6 samples.

Results

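This report describes 40 genes of mitosis and chromosome segregation, out of 23337 genes counted, in leukaemia initiating cells (LICs) sorted from mice, that is, the cells of a leukaemia that can found it again in a new host. The 40 genes were chosen by name, for their known work in cell division, although earlier results of these data were known at the time. All 40 were found in the file. They fall into 8 roles: cyclins and their entry kinase, mitotic kinases, checkpoint and anaphase control, kinetochore, spindle motors and assembly, the chromosomal passenger complex, midzone and cytokinesis, and chromosome structure. The 6 polyA-selected RNA libraries comprised 3 labelled adult (replicates 1, 2 and 4) and 3 labelled neonatal (replicates 4, 7 and 8), and in both groups the source is given as haematopoietic stem and progenitor cells. The labels give age as adult or neonatal only, and no strain, genotype, treatment, sex or leukaemia driver. Nothing in them says that replicates are separate animals; the p-values here therefore cover only the spread between these libraries, which may be technical.

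A dividing cell makes most of its mitotic proteins anew in each cycle and destroys many of them at its end. Cyclin B with CDK1 drives entry, Aurora and Polo-like kinases build the spindle, and the spindle checkpoint holds back the anaphase promoting complex until every chromosome is attached. Transcription of these genes peaks late in the cycle, so in bulk RNA their level is widely read as a sign of how many cells are cycling.

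Neonatal replicate 4, the shallow library, stood apart in depth, with 3932833 counts against 60113466 to 66132051 in the other 5 libraries, called deep below. Values by library are given in the order adult replicates 1, 2 and 4, then neonatal replicates 4, 7 and 8. Haematopoietic genes such as Ptprc, Spi1, Kit and Myb were present in all 6 libraries. The maturing neutrophil list, of which 9 of 10 genes were in the file, summed to 5968, 14870 and 1844 CPM (counts scaled to library size after TMM, the trimmed mean of M values) in the adult libraries. The neonatal sums were 292, 152 and 65.6 CPM. The sum of the 6 mast cell and basophil genes, 3 of them at 0 counts in all 6 libraries, ran the other way. It was 22.1, 58.8 and 24.8 CPM across the adult set and 163, 200.2 and 587 CPM across the neonatal set. Of the 3 genes of this list with enough counts to be tested, 2 were higher and 1 lower in neonatal libraries by estimated fold change. Neutrophil precursors stop dividing as they mature, and the part of either difference in the values below was not tested. The monocyte and macrophage list, with 0 of 8 genes at 0 counts in all 6 libraries, summed to 186 to 506 CPM. The megakaryocyte list, also with 0 of 6 genes at 0 counts in all libraries, summed to at most 48.8 CPM. The erythroid, B cell, and T and NK cell lists had some of their genes at 0 and others present. The erythroid list summed to 1.56 to 14.98 CPM over the 6 libraries, with 4 of 11 genes at 0 counts in all, among them Hba-a1, Hba-a2 and Slc4a1. The B cell list summed to 38.8 to 151 CPM, with 3 of 8 genes at 0, among them Pax5 and Ms4a1. The T and NK cell list summed to 36.5 to 270.2 CPM, highest in neonatal replicate 4, with 5 of 8 genes at 0 (Cd3e, Cd3g, Cd4, Ncr1 and Gzma). Y-linked RNA was present in each adult library and Xist RNA in each neonatal one, so sex and age group cannot be told apart. Kif4 is the only member on chromosome X.

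As a group, the mitosis genes stood at nearly the same level in adult and neonatal LICs. Their summed level was 8200, 8211 and 8112 CPM in the adult set and 8335, 7070 and 8643 CPM in the neonatal set. The neonatal libraries thus lay on both sides of the adult ones. The members took between 0.709 and 0.882% of all counts of a library. In bulk RNA, fewer cells of a type and less RNA per cell cannot be told apart, and so a shift in the share of dividing cells and a shift in RNA per dividing cell would look alike.

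Gene by gene, 0 of the 40 passed edgeR's quasi-likelihood test on 6 libraries at an adjusted p under 0.05, where 0.0527% of the 13272 genes tested passed. All 40 had enough counts to be tested. At an unadjusted p under 0.05 there were 2 members, a smaller share than the 11.9% of all genes tested. With the other tools on 6 libraries, DESeq2 called 1 member (5.72% of all genes), limma voom called 0, and voom with library quality weights called 2 (7.96% of all genes). The log2 fold changes, neonatal minus adult, were positive for 21 members and negative for 19, with a median of 0.03 beside 0.05 over all genes tested. They ran from -0.92 for Mki67 to 0.62 for Aurka, with standard errors (SE) of 0.26 to 0.72. A p that misses the threshold does not show equal levels. In simulated counts of 6 such libraries, the test called 4 of 50 genes at an absolute log2 fold change of 1. It called 23 of 50 at 2. The changed genes there were drawn at any mean above 1 CPM, whereas the members' means ran from 42.7 to 571 CPM. These rates are therefore not those of the members.

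With neonatal replicate 4 left out, 2 members passed edgeR's test, Smc2 and Mki67, both lower in neonatal LICs. At an unadjusted p under 0.05 there were 16 members, a larger share than the 29.5% of all genes tested. That fit called 5.98% of its 13856 genes, 3.72% higher and 2.25% lower. The members were then positive in 17 cases and negative in 23, with a median of -0.12 beside -0.05 over all genes. Leaving out that library changed the sign of 10 members. DESeq2 without the same library called 12 members, 6 higher (Aurka, Plk1, Bub1b, Cdc20, Racgap1 and Ncapd2) and 6 lower (Cenpe, Cenpf, Nuf2, Hmmr, Smc2 and Mki67), where it called 24.0% of all genes (12.6% higher and 11.4% lower).

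**Figure D1:**
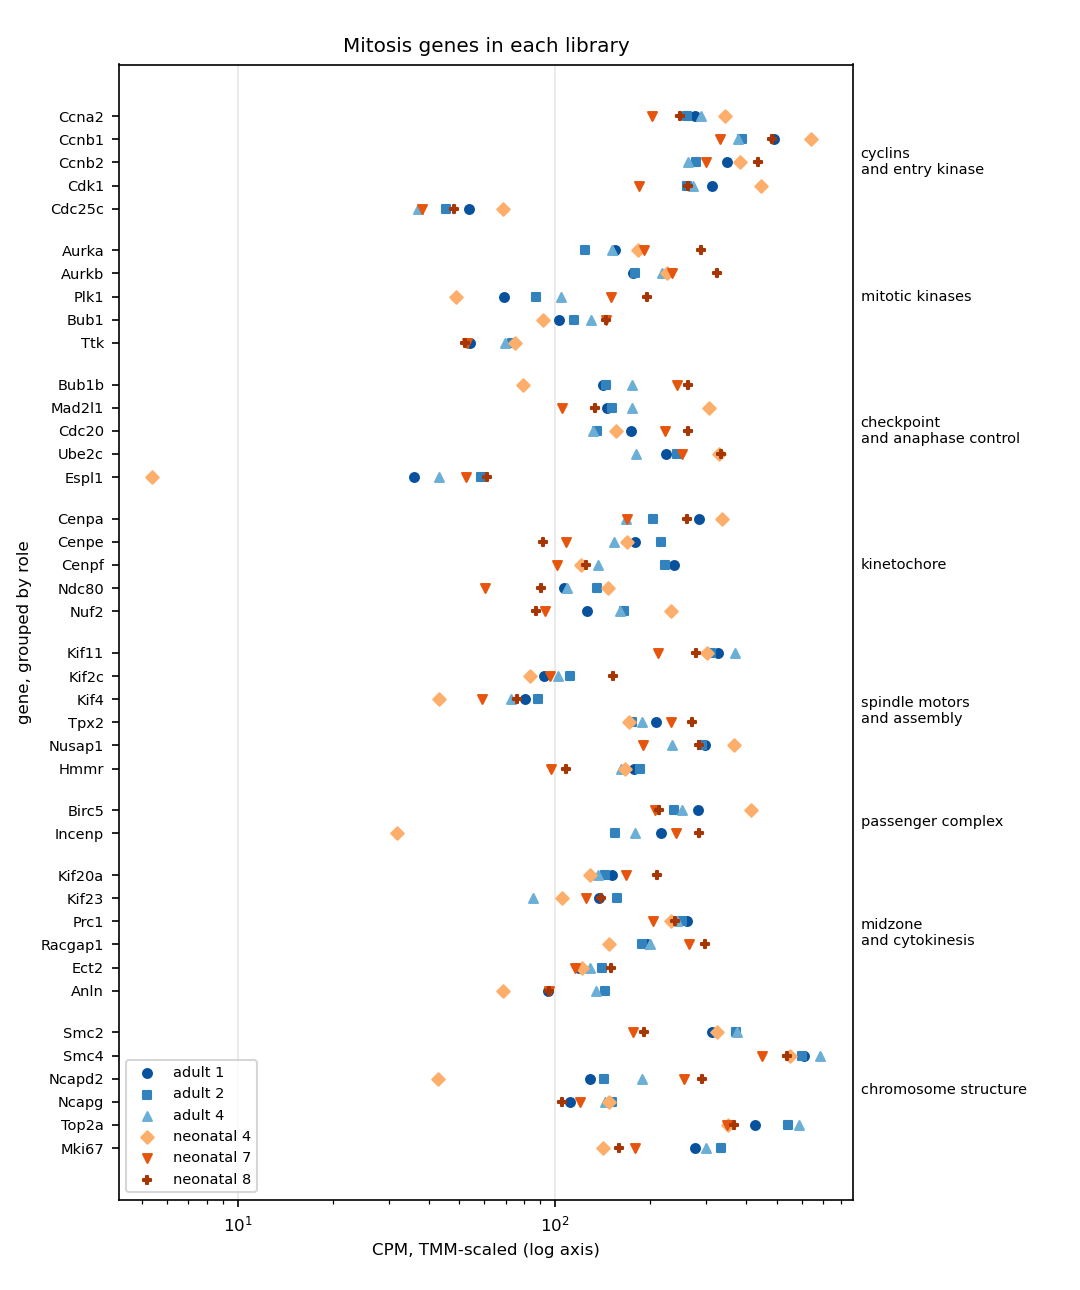
Level of each of the 40 genes (CPM, log axis) in the 6 libraries, blue for adult and orange to brown for neonatal, grouped by role. Most genes span a narrow range, and neonatal replicate 4 (diamonds) gives the lowest point for 13 genes, among them Espl1 and Incenp, and the highest for 11.

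The members were steadier between libraries than other genes of like level. Over the 5 deep libraries, the ratio of a gene's highest to its lowest CPM had a median of 1.69 for the members, 1.81 for the 4804 tested genes within the members' range of mean CPM, and 2.20 for all genes tested. This ratio was under 2 for 32 of 40 members, for 62.2% of the genes in that range and for 39.9% of all genes. Over all 6 libraries, neonatal replicate 8 held the highest value for 16 members, neonatal replicate 4 for 11 and neonatal replicate 7 for 0. Neonatal replicate 7 held the lowest value for 15 members, neonatal replicate 4 for 13 and neonatal replicate 8 for 4. The 2 deep neonatal libraries differed from each other in summed member level, at 7070 and 8643 CPM, with the adult sums between them. By median member CPM, both lay above the adult libraries, replicate 7 only narrowly, at 177.5 and 211.3 against 170.1 to 176.8 CPM. The median deviation of the members from each gene's own mean (log2 CPM) gave another order. It was -0.22 in neonatal replicate 7, the lowest of the 6 libraries, 0.10 in neonatal replicate 8 and 0.04 to 0.07 in the adult libraries.

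Levels per length, in RPKM from the file's exon lengths, were compared among members in adult LICs. Ube2c was highest at 232 ± 34.9 RPKM (SD, n = 3), followed by Ccnb2 at 193 ± 29.1 RPKM and Ccnb1 at 181 ± 26.2 RPKM, neighbours that lay within their spread. Cenpa stood at 163 ± 44.5 RPKM and Smc4 at 155 ± 11.4 RPKM. The lowest were Cenpf at 17.9 ± 4.93 RPKM, Kif4 at 17.1 ± 1.70 RPKM and Espl1 at 6.91 ± 1.72 RPKM. The genes of the E2 enzyme Ube2c and the B cyclins thus led the order, and Espl1, which encodes separase, closed it.

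Most members with a promoter found carry elements that were not themselves used in choosing the genes. Late cell cycle genes are known for the CHR (cell cycle genes homology region), bound by the MuvB complexes, and for the CCAAT box, bound by NF-Y. The members were chosen for known work in cell division, so their share of these elements is not independent of that choice. Promoters from 250 bases before to 50 after the start were found for 33 of 40 members in RefSeq (build GRCm38.p6), and Incenp, Cdc25c, Kif20a, Ccna2, Aurkb, Smc4 and Tpx2 were not matched. Sequences from 150 bases before the start, 5′ to 3′ on the gene's strand, are shown for 10 members of different roles to let the elements be seen in place. Capitals mark the CHR (TTTGAA, or TTCAAA read on the other strand), its variant TTTAAA, and the CCAAT box (CCAAT, or ATTGG read on the other strand).
Ccnb1 (chr13:100786487-100786636, minus strand): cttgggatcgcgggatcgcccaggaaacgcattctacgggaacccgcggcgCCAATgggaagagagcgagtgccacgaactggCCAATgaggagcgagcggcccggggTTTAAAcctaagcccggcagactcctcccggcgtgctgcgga
Cdk1 (chr10:69352913-69353062, minus strand): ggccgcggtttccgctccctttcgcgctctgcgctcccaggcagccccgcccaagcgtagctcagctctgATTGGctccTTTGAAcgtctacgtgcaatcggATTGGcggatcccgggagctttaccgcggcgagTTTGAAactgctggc
Plk1 (chr7:122159285-122159434, plus strand): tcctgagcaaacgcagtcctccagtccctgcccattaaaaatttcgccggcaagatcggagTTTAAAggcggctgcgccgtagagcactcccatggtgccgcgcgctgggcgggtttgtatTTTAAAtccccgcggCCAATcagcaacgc
Cdc20 (chr4:118437344-118437493, minus strand): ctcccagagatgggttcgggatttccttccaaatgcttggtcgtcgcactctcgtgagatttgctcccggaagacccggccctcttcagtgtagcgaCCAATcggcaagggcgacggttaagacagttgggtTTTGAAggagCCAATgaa
Ube2c (chr2:164769779-164769928, plus strand): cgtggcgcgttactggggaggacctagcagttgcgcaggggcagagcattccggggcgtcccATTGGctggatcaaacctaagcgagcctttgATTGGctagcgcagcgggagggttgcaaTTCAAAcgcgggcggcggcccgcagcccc
Kif11 (chr19:37376232-37376381, plus strand): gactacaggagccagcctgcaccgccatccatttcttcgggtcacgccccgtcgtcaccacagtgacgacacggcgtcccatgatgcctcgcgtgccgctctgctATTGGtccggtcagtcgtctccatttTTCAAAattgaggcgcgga
Espl1 (chr15:102296143-102296292, plus strand): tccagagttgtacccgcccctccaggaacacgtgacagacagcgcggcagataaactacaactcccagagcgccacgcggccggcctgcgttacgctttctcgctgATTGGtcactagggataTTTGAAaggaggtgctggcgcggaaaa
Ncapg (chr5:45669775-45669924, plus strand): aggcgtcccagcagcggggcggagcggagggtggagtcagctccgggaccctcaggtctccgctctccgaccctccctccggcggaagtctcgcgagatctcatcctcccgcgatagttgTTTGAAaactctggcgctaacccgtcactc
Top2a (chr11:99024190-99024339, minus strand): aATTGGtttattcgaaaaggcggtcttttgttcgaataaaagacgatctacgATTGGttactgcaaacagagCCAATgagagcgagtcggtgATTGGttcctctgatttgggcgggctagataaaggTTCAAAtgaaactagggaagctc
Mki67 (chr7:135716380-135716529, minus strand): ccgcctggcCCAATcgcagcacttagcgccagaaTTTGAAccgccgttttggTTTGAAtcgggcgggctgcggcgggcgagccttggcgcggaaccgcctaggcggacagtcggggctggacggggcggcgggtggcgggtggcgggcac
Ccnb1 (cyclin B1) has the variant CHR with CCAAT boxes before it, Ncapg (a condensin subunit) a CHR without a CCAAT box in this window, and Mki67 (the Ki-67 antigen) 2 CHRs.

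TTTGAA on either strand lay in the promoters of 26 of 33 members (78.8%). It lay in 20.2% of the 27025 genes with a RefSeq promoter, in 14.3% of the 9373 tested genes with one, in 13.9% of 36 DNA replication genes, and in 41.3% of 104 genes of the further mitosis lists described below. Within 50 bases of the start it was present in 69.7% of members, 28.8% of those further mitosis genes and 5.72% of all genes. With TTTAAA, which reads the same on both strands, counted as well, 29 of 33 members (87.9%) and 30.6% of all genes had a match. CCAAT on either strand was present in 26 of 33 members (78.8%), 41.1% of all genes, 63.9% of DNA replication genes and 59.6% of the further mitosis genes. The motifs were counted separately, and overlaps between them were allowed. The gap between members and replication genes was thus wider for the CHR than for the CCAAT box, and the further mitosis genes lay between them in the CHR. These are matches of letters, given as a description, and 4 members with a promoter had neither CHR form: Nuf2, Nusap1, Bub1 and Mad2l1.

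**Figure D2:**
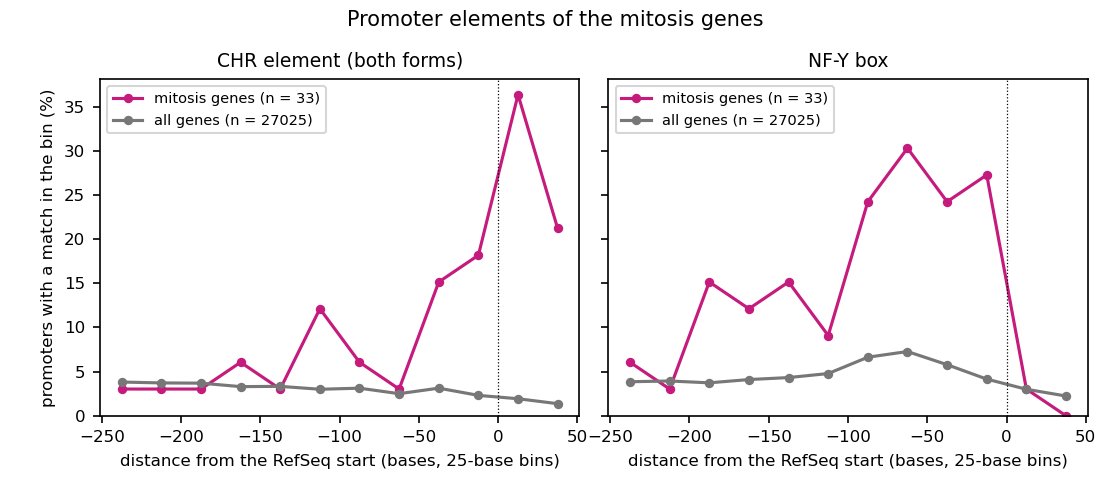
Share of promoters (%) with a match in each 25-base bin against the distance from the RefSeq start (bases), for the CHR in both forms (left) and the CCAAT box (right), in 33 mitosis genes (magenta) and 27025 genes (grey). In the mitosis genes CHR matches gather around the start and CCAAT boxes before it, and all genes stay below 10% in every bin.

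Cyclins and the entry kinase set the time of mitosis, and none of the 5 passed the test. Ccnb1, which encodes cyclin B1, the partner of CDK1 at mitotic entry, was at 489, 389 and 379 CPM across the adult set and 642, 333 and 483 CPM across the neonatal set. Its neonatal values lay above, below and within the adult range (log2 fold change 0.21 ± 0.34, SE; -0.03 ± 0.23 without neonatal replicate 4). Cdk1 itself stood at 314, 262 and 273 CPM across the adult set and 446, 184 and 263 CPM across the neonatal set, again on both sides. Ccnb2, encoding the second B cyclin, was 297 ± 44.9 CPM (SD, n = 3) in adult LICs with a log2 fold change of 0.33 ± 0.30. Ccna2, encoding cyclin A2, which acts in S phase and early mitosis, had -0.06 ± 0.30 (-0.28 ± 0.18 without neonatal replicate 4), and Cdc25c, the phosphatase that switches CDK1 on, 0.18 ± 0.34 (-0.06 ± 0.24). In 4 of the 5 genes the fold change was positive on 6 libraries, and in 1 of the 5, Ccnb2, without neonatal replicate 4, which held the highest value of the other 4.

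Mitotic kinases had the most positive fold changes of the 8 roles, with a median of 0.45 on 6 libraries and 0.56 without neonatal replicate 4, and 4 of 5 positive in both. None passed edgeR's test. Aurka, the Aurora A kinase of centrosomes and spindle poles, was at 154, 125 and 152 CPM across the adult set and 183, 191 and 289 CPM across the neonatal set. All 3 neonatal values lay above all 3 adult ones (log2 fold change 0.62 ± 0.30, edgeR adjusted p = 0.482; 0.75 ± 0.23 and adjusted p = 0.0915 without neonatal replicate 4, with 0.0238 to 0.866 over all alternatives). Aurkb, the kinase of the passenger complex that corrects faulty attachments, was at 176, 179 and 217 CPM across the adult set and 226, 234 and 323 CPM across the neonatal set, also without overlap. Its log2 fold change was 0.45 ± 0.29.

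Plk1, the Polo-like kinase needed at almost every step of mitosis, was at 69.0, 87.3 and 105 CPM in adult libraries. The neonatal values were 48.7 CPM in the shallow library and 149.9 and 196 CPM in the deep neonatal libraries. The shallow library was thus below and the deep neonatal libraries above every adult value. The log2 fold change was 0.60 ± 0.49 on 6 libraries and 1.0 ± 0.24 without neonatal replicate 4 (edgeR adjusted p = 0.0551; adjusted p over all alternatives 0.00215 to 0.942). Bub1, the checkpoint kinase that marks the inner centromere, had 0.13 ± 0.30 (0.33 ± 0.18 without that library), and Ttk, the MPS1 kinase that starts the checkpoint signal, was the negative member with -0.13 ± 0.30 (-0.31 ± 0.21).

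Checkpoint and anaphase genes split between 2 patterns. Cdc20, the activator of the anaphase promoting complex that the checkpoint restrains, was at 173, 136 and 132 CPM across the adult set and 156, 223 and 262 CPM across the neonatal set, so that only neonatal replicate 4 lay among the adult values. Bub1b, encoding BUBR1, a part of the inhibitor of that complex, was at 142, 145 and 176 CPM across the adult set and 79.2, 243 and 263 CPM across the neonatal set. Mad2l1, encoding MAD2, the partner of BUBR1 in the same inhibitor, ran the other way, at 146, 151 and 174 CPM across the adult set and 306, 105 and 134 CPM across the neonatal set. Neonatal replicate 4 therefore held the highest Mad2l1 and the lowest Bub1b value of the 6 libraries, and in neonatal replicates 7 and 8 Mad2l1 lay below and Bub1b above the adult range.

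Without neonatal replicate 4 the log2 fold changes were 0.73 ± 0.20 for Cdc20 (edgeR adjusted p = 0.0698; 0.00939 to 0.898 over all alternatives) and -0.39 ± 0.19 for Mad2l1. For Bub1b it was 0.73 ± 0.18 (adjusted p = 0.0581; 0.00196 to 0.986 over all alternatives). Ube2c, the ubiquitin-conjugating enzyme of the anaphase promoting complex, was at 224, 243 and 180.1 CPM across the adult set and 329.7, 251 and 334 CPM across the neonatal set, without overlap (0.50 ± 0.29). Espl1, encoding separase, the protease that cuts cohesin, was at 36.0 to 58.3 CPM in adult libraries and at 52.3 and 61.0 CPM in the deep neonatal ones. In neonatal replicate 4 it had 18 counts, 5.38 CPM (exact Poisson interval 3.19 to 8.50, for counting error only), which lay far below every other library.

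Kinetochore genes, whose products join chromosomes to spindle fibres, had the most negative median without neonatal replicate 4, -0.72, and 0 of 5 were positive there. On 6 libraries the median was -0.25, and none passed the test in either fit of edgeR. Cenpe, the kinesin that carries chromosomes to the spindle equator, was at 179, 216 and 154 CPM across the adult set and 168, 108 and 92.0 CPM across the neonatal set. Cenpf, a large protein of the outer kinetochore, was at 238, 223 and 136 CPM across the adult set and 121, 102 and 126 CPM across the neonatal set, with every neonatal value below every adult one by a narrow gap (log2 fold change -0.78 ± 0.32, edgeR adjusted p = 0.384). Nuf2 and Ndc80 encode partners in the complex that grips microtubules, and both were highest in neonatal replicate 4 and below the adult range in neonatal replicates 7 and 8. Nuf2 was at 126, 165 and 160.1 CPM across the adult set and 233, 93.4 and 87.4 CPM across the neonatal set. Ndc80 was at 107, 135 and 109.5 CPM against 147, 60.3 and 90.6 CPM. Cenpa, the histone H3 variant that marks centromeres, did not share this pattern, with 284, 203 and 167 CPM across the adult set and 337, 169 and 260.1 CPM across the neonatal set.

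Spindle motors and assembly factors were mixed. Kif11, the kinesin that pushes spindle poles apart, was at 327, 310.5 and 369 CPM across the adult set and 301, 212 and 278 CPM across the neonatal set, without overlap (log2 fold change -0.35 ± 0.29). Hmmr, encoding the spindle-assembly protein RHAMM, was at 178, 186 and 161 CPM across the adult set and 167, 97.5 and 108 CPM across the neonatal set, where only neonatal replicate 4 lay within the adult range (-0.75 ± 0.17 and edgeR adjusted p = 0.0529 without that library, with 0.000499 to 0.907 over all alternatives). Tpx2, which activates Aurora A on the spindle, went the other way in the deep libraries, at 208, 175 and 189 CPM across the adult set and 171, 232 and 271 CPM across the neonatal set. Its log2 fold change was 0.24 ± 0.29, and 0.41 ± 0.17 without neonatal replicate 4. Kif2c, a microtubule depolymerase of the centromere, had 0.12 ± 0.32 on 6 libraries and 0.30 ± 0.24 without that library. The microtubule bundling gene Nusap1 turned from 0.03 ± 0.33 to -0.20 ± 0.24, and the chromokinesin gene Kif4 went from -0.44 ± 0.31 to -0.25 ± 0.20.

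The chromosomal passenger complex joins Aurora B to its scaffold INCENP and to survivin, the product of Birc5. Incenp was at 216, 154 and 178 CPM in adult libraries, at 31.7 CPM in the shallow library and 241 and 284 CPM in the deep neonatal libraries. Birc5 showed the reverse order, at 283, 237 and 251 CPM across the adult set and 415, 207 and 213 CPM across the neonatal set. Members of a single complex thus stood at opposite ends of the neonatal range in the same library, and on 6 libraries their log2 fold changes were 0.03 ± 0.67 and 0.11 ± 0.36. Without neonatal replicate 4 these were 0.53 ± 0.20 for Incenp and -0.28 ± 0.17 for Birc5.

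Midzone and cytokinesis genes lay near no difference on 6 libraries, with a median of -0.02. Racgap1, the GTPase-activating subunit of centralspindlin, was at 195, 188 and 199.7 CPM across the adult set and 148, 264 and 298 CPM across the neonatal set, a narrow adult range with the deep neonatal libraries above it (0.54 ± 0.16 and edgeR adjusted p = 0.0861 without neonatal replicate 4, with 0.00768 to 0.982 over all alternatives). Kif23, the motor subunit of the same complex, lay within the adult range in all 3 neonatal libraries (-0.04 ± 0.32; 0.07 ± 0.28 without neonatal replicate 4). Prc1, the protein that crosslinks midzone microtubules, was at 259.9, 251 and 243 CPM across the adult set and 233, 203 and 239 CPM across the neonatal set, which did not overlap although the log2 fold change was only -0.16 ± 0.26. Kif20a, the kinesin that brings passenger proteins to the midzone, had 0.23 ± 0.29 (0.40 ± 0.18 without that library). Ect2, the exchange factor that activates RhoA for the cleavage furrow, had -0.00 ± 0.27 (0.05 ± 0.19), and Anln, the furrow scaffold anillin, -0.52 ± 0.31.

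Chromosome structure genes had the lowest median on 6 libraries, -0.42, with 1 of 6 positive. Mki67 (chr7:135689788-135716379, mm10, minus strand) encodes Ki-67, the coat of mitotic chromosomes used in pathology as a mark of cycling cells. It was at 277, 333 and 299 CPM across the adult set and 142, 179 and 159 CPM across the neonatal set. All 3 neonatal libraries lay well below all 3 adult ones, including the shallow library. The log2 fold change was -0.92 ± 0.27 on 6 libraries (edgeR adjusted p = 0.233, the smallest of the 40) and -0.83 ± 0.18 without neonatal replicate 4 (adjusted p = 0.0487). Over the 24 alternatives the adjusted p ran from 0.000131 to 0.551 and the log2 fold change from -1.01 to -0.36. The value of -0.36 (SE 0.16, edgeR adjusted p = 0.268) came with GC and exon length trends removed and neonatal replicate 4 left out. Mki67 has 10075 bases of exon, and the part of its length in the difference was not tested.

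Smc2 (chr4:52439249-52488259, mm10, plus strand) encodes a core ATPase of the condensins, which compact chromosomes. It was at 314, 373 and 374 CPM in adult libraries, at 325 CPM in the shallow library and 176 and 191 CPM in the deep neonatal libraries. The shallow library therefore stood with the adults, and the 2 deep neonatal libraries at about the same lower level. The log2 fold change was -0.62 ± 0.33 on 6 libraries (edgeR adjusted p = 0.533) and -0.93 ± 0.18 without neonatal replicate 4 (adjusted p = 0.0432; 9.75e-06 to 0.887 over all alternatives).

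On the counts as deposited, other condensin members differed in direction, and the differences between them were not tested. The ATPase partner of Smc2, Smc4, was at 608, 600.2 and 684 CPM across the adult set and 551, 449 and 537 CPM across the neonatal set, lower without overlap, with a log2 fold change of -0.30 ± 0.28 (-0.34 ± 0.18 without neonatal replicate 4). Ncapg, a condensin I subunit, had -0.13 ± 0.29 (-0.26 ± 0.20). Ncapd2, another condensin I subunit, was at 129, 143 and 188 CPM in adult libraries, 42.7 CPM in the shallow library and 256 and 292 CPM in the deep neonatal libraries, which made it the most positive member after Plk1 without that library (0.85 ± 0.21, edgeR adjusted p = 0.0614; 0.00405 to 0.998 over all alternatives). Top2a, the topoisomerase that untangles sister DNA, was at 429, 541 and 588 CPM across the adult set and 352, 349 and 367 CPM across the neonatal set. Its neonatal values were close together and below every adult value (-0.55 ± 0.28, edgeR adjusted p = 0.505).

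**Figure D3:**
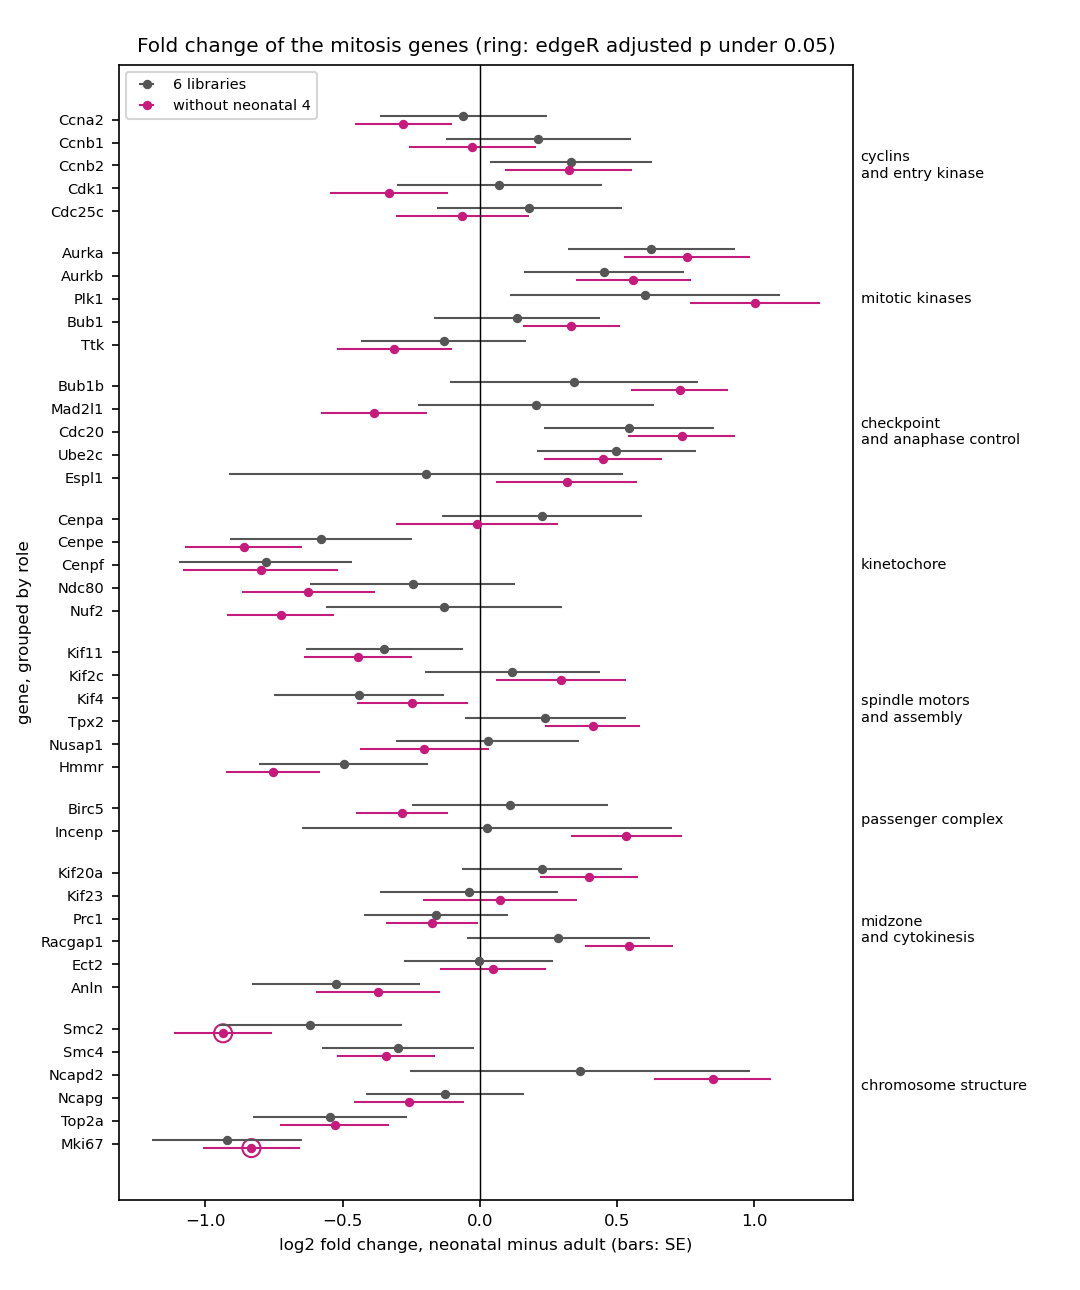
Log2 fold change, neonatal minus adult, of each of the 40 genes with its SE, for all 6 libraries (grey) and without neonatal replicate 4 (magenta), grouped by role. Rings mark Smc2 and Mki67, the genes past an edgeR adjusted p of 0.05, which passed without neonatal replicate 4 only.

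Across all 6 libraries the groups did not overlap in CPM for 9 of 40 members, where 19.6% of all genes tested did not overlap. Of these, 3 were higher in neonatal LICs (Aurka, Aurkb and Ube2c) and 6 lower (Cenpf, Kif11, Prc1, Smc4, Top2a and Mki67), beside 7.67% and 12.0% of all genes. Neonatal replicates 7 and 8 lay outside the adult range on 1 side for 27 members, 12 above and 15 below, where 50.6% of all genes did so. The count on 6 libraries is thus near the background.

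Fold changes among members followed the base composition of their transcripts. Without neonatal replicate 4, Pearson's r between log2 fold change and GC content was 0.76 and Spearman's rho 0.74 across the 40 members, and 0.27 and 0.43 across 13652 genes tested; these are descriptions across genes, which share the same libraries. The 10 members of highest GC content, from 50.3 to 56.1%, were Aurka, Aurkb, Plk1, Bub1b, Cdc20, Ube2c, Espl1, Kif2c, Incenp and Ncapd2. All 10 were positive without neonatal replicate 4, with a median of 0.64 beside 0.23 for the 4102 tested genes in the same GC range. The 10 of lowest GC content, from 39.7 to 42.3% and including Smc2, Nuf2, Hmmr and Kif11, had a median of -0.36 beside -0.49 for 1060 genes. Among all genes, the median log2 deviation from the gene's mean went up with GC content in neonatal replicate 7, from -0.33 in the lowest to 0.42 in the highest of 8 GC bins, and in neonatal replicate 8, from -0.36 to 0.51. In neonatal replicate 4 it ran from 0.24 down to -0.59.

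With the GC trend of each library removed and neonatal replicate 4 left out, 0 of the 40 members passed edgeR's test, where 0.318% of all genes did. There were 10 members at an unadjusted p under 0.05, a share near the 22.1% of all genes tested, and the smallest adjusted p was 0.0731, for Bub1. The log2 fold change of Mki67 was then -0.58 ± 0.17 (edgeR adjusted p = 0.125) and that of Smc2 -0.34 ± 0.18 (adjusted p = 0.318). The median of the members moved to 0.20, with 26 positive and 14 negative, and 11 members changed sign. Among these 11 were Mad2l1, Smc4 and Ncapg, then at 0.19, 0.23 and 0.33. By role, the mitotic kinases kept a median of 0.58, the kinetochore genes went from -0.72 to -0.24 and the chromosome structure genes from -0.44 to 0.07. Removing the trend also removes any difference between the groups that follows GC content, and the sources cannot be told apart here.

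**Figure D4:**
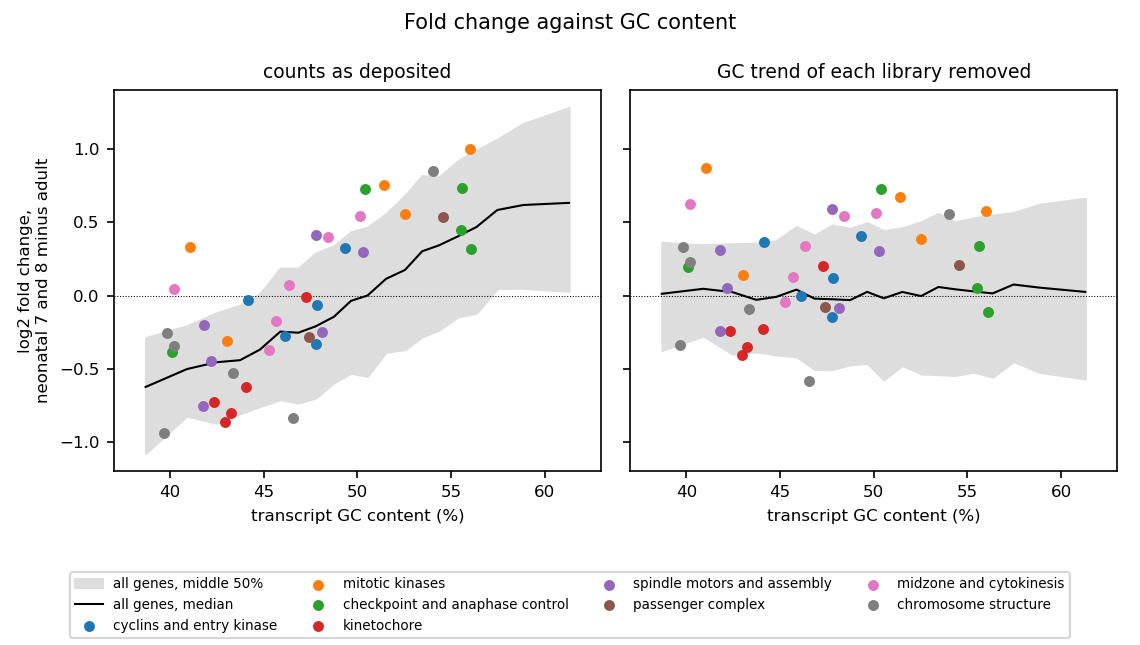
Log2 fold change (neonatal replicates 7 and 8 minus adult) against GC content of the transcript (%), for the 40 genes coloured by role, over the median (line) and middle 50% (grey) of all tested genes in 20 GC bins. The members lie higher at higher GC content on the counts as deposited (left, r = 0.76) and less so once each library's GC trend is removed (right, r = 0.26).

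Transcript length moved with the values of neonatal replicate 4. Over 6 libraries, Pearson's r between the members' log2 fold change and log2 exon length was -0.76 (Spearman's rho -0.69), and without that library -0.43 (rho -0.40). Across all genes tested with a GC value, r was -0.09 (rho -0.20) over 6 libraries and 0.03 (rho 0.04) without that library. With the length trend removed on 6 libraries, 0 members had an unadjusted p under 0.05 in edgeR's test, beside 11.8% of all genes. Member log2 fold changes then ran from -0.39 to 0.49, instead of -0.92 to 0.62. In neonatal replicate 4 the short Mad2l1 (1725 bases of exon) was at its highest and the long Espl1 (6630 bases) at its lowest. These 2 genes also differ in GC content, at 40.1 and 56.1%. The short Plk1 (2203 bases, 56.0% GC) was at its lowest there too, and the long Cenpe (7813 bases, 42.9% GC) lay within the adult range. With the GC trend removed on 6 libraries, the members' r with log2 exon length was -0.72. The part of RNA quality in the relation to length was not tested.

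Beyond the 40, 127 further mitosis genes in 6 lists were examined, of which 126 were tested. On 6 libraries 0 passed edgeR's test, with 8 at an unadjusted p under 0.05 (11.9% of all genes). DESeq2 called 2 (5.72% of all genes), limma voom 0 and voom with library quality weights 5 (7.96% of all genes). Their median log2 fold change was -0.06, with 56 positive and 70 negative. Without neonatal replicate 4 the median was -0.29, with 46 positive and 80 negative, beside -0.05 over all genes. In that fit edgeR called 5 higher and 3 lower, 8 of 126 beside 5.98% of all genes. Limma voom called 5 higher and 4 lower there, beside 643 and 285 of all 13856 genes. DESeq2 called 13 higher and 30 lower, 43 of 126 beside 24.0% of all genes. The balance of higher and lower calls thus turned with the tool.

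The 8 genes called by edgeR without neonatal replicate 4 were spread over the lists, and the log2 fold changes that follow are from that fit. Their edgeR adjusted p was 0.211 to 0.783 on 6 libraries, and 0.0648 to 0.293 with the GC trend removed and that library left out. Of 36 other kinetochore and centromere genes, Sgo2a, encoding the shugoshin that protects centromeric cohesin, fell by 0.98 on the log2 scale (SE 0.20, edgeR adjusted p = 0.0475). Of 30 other spindle and cytokinesis genes, the kinesin gene Kif18b rose (0.94 ± 0.20) and Cep55, needed for the final cut between daughter cells, fell (-0.90 ± 0.18). Of 18 anaphase promoting complex genes, the scaffold subunit Anapc2 (1.36 ± 0.22) and the activator Fzr1 (1.19 ± 0.21) rose. The list had 9 positive and 9 negative genes in that fit. DESeq2 without neonatal replicate 4 called 3 of its 18 genes higher and 2 lower, beside 12.6% and 11.4% of all genes. Anapc2 was at 60.8, 49.6 and 68.4 CPM in adult libraries, 29.0 CPM in the shallow library and 129 and 176 CPM in the deep neonatal libraries, so that the shallow library lay on the other side.

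Of 14 cohesin genes, the loader Nipbl fell (-0.97 ± 0.19, edgeR adjusted p = 0.0449), from 114, 135 and 117 CPM in adult to 64.9, 67.6 and 56.0 CPM in neonatal libraries, with all 3 neonatal libraries below the adult ones. The list had a median of -0.50 in that fit, and of -0.08 with the GC trend removed as well. Of 4 other condensin genes, Ncaph, the kleisin of condensin I, rose (1.01 ± 0.20), from 92.3, 98.6 and 121 CPM in adult libraries and 105 CPM in neonatal replicate 4 to 186 and 229.8 CPM in neonatal replicates 7 and 8. Of 24 tested G2 regulators and transcription factors, Cdc25b, a phosphatase that activates CDK1 at the centrosome, rose (1.75 ± 0.36, adjusted p = 0.0472). Ccna1, encoding the germ-line cyclin A1, had 0 counts in all 6 libraries. With the GC trend removed and neonatal replicate 4 left out, 0 of these 126 passed edgeR's test, with 26 at an unadjusted p under 0.05, beside 3060 of the 13856 genes tested (22.1%).

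The summed level of DNA replication genes, which act in S phase, ranged more widely among the adult libraries than that of the mitosis genes. The 44 genes summed to 5667, 6318 and 9492 CPM in the adult set and to 8866, 7062 and 7181 CPM in the neonatal set. The adult range held all 3 neonatal sums, whereas the sums of the mitosis genes differed little among the adult libraries. None passed edgeR's test on 6 libraries, with 0 at an unadjusted p under 0.05, 0 called by DESeq2 and 0 by limma voom, and the median log2 fold change was 0.13. Without neonatal replicate 4 the median was -0.22, with 17 positive and 27 negative. In that fit edgeR called 0 of the 44, with 12 at an unadjusted p under 0.05, a smaller share than the 29.5% of all genes. Limma voom called 0 there. DESeq2 called 7, a smaller share than the 24.0% of all genes, with 1 higher and 6 lower (12.6% and 11.4% of all genes). On 6 libraries the genes with the smallest p were Rfc1, the large subunit of the clamp loader (-0.61 ± 0.28), and Pold2, a subunit of polymerase delta (0.71 ± 0.37).

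**Figure D5:**
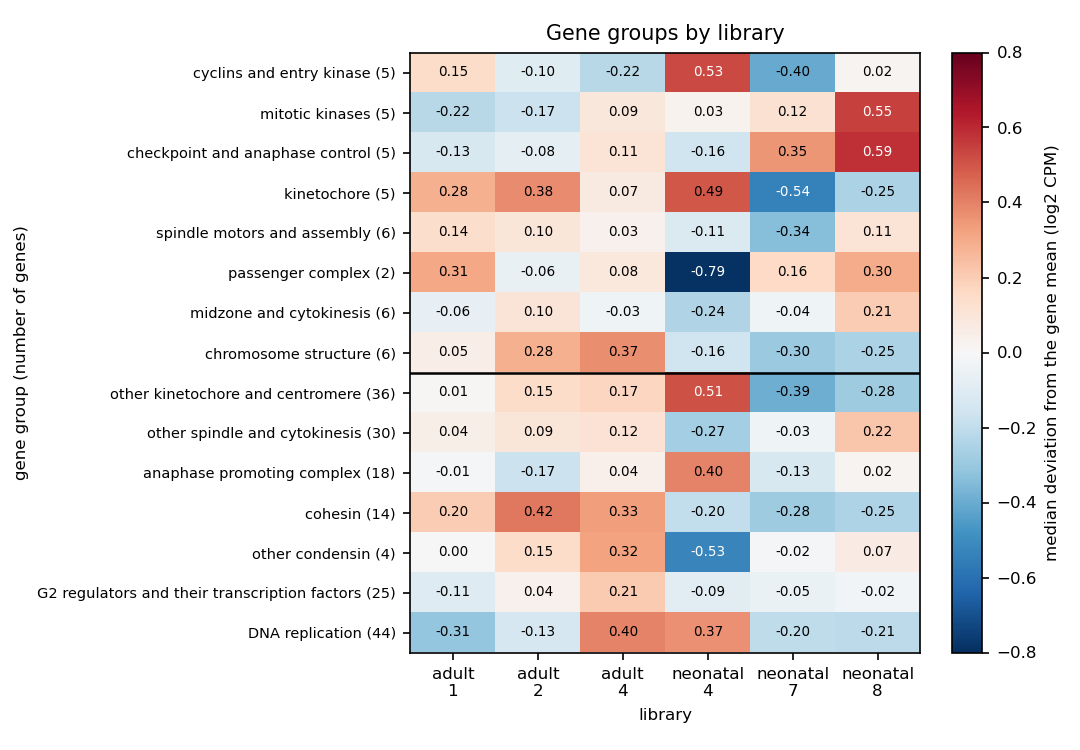
Median deviation from the gene's mean over 6 libraries (log2 CPM) for each of the 8 roles (above the line) and 7 further gene lists (below it), by library, over genes with a mean above 1 CPM. Mitotic kinases and checkpoint genes are highest in neonatal replicate 8 (0.55 and 0.59), kinetochore genes are lowest in neonatal replicate 7 (-0.54), and neonatal replicate 4 departs from replicates 7 and 8 in several rows.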

How the data were processed

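PolyA-selected RNA of 3 adult and 3 neonatal libraries was read single-end, per the labels' protocols, from libraries of the NEBNext Ultra RNA kit, which keeps no record of strand. The authors deposited raw counts for each gene; per the file headers, featureCounts 1.5.1 made them on mouse build mm10. Per the submitters' processing notes, Trimmomatic, Bowtie, TopHat and DESeq2 were also used; their versions and settings are not given in the sources used here. Without strand, reads of a gene and of an overlapping antisense gene cannot be told apart. Library totals were 60113466, 65183188 and 62308393 counts (adult replicates 1, 2 and 4) and 3932833, 64712241 and 66132051 counts (neonatal replicates 4, 7 and 8).

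Neonatal were compared with adult counts in R 4.3.3 and edgeR 4.0.16 (filterByExpr with minimum count 10, TMM, robust quasi-likelihood test), with Benjamini-Hochberg adjustment over all 13272 genes kept and a threshold of 0.05. The SE is the absolute log2 fold change divided by the square root of F, an approximate value. CPM used TMM-scaled library sizes. The 40 members, the other lists and the naming rule (all members; of the other lists, genes called with 6 libraries or without neonatal replicate 4, otherwise the 2 of smallest p) were chosen with earlier results of these data known. In the other lists, 244 of 246 genes were in the file, 15 through a synonym. For GC content, the longest protein-coding GENCODE transcript of each gene was used (same assembly), which covered all 40 members. Trends were fitted by lowess (span 0.3, prior count 2) on log2 CPM. Alternatives were 18 planned settings, among them DESeq2 1.42.0, limma 3.58.1 voom, other scalings and filters, and each library left out, and 6 chosen after seeing the data (GC and length trends, and other tools without neonatal replicate 4). Tested on simulated data of 13027 genes in 6 libraries, edgeR detected 4, 23, 43 and 49 of 50 genes simulated with an absolute log2 fold change of 1, 2, 3 and 5, respectively, and made 6 calls among 12827 genes left unchanged; without neonatal replicate 4 (13538 genes) it called 12, 39, 42 and 49 of 50.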

Additional observations from a re-analysis of the deposited data

How the results depend on the processing

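The settings below were compared with the 6-library values of 7 genes called, 0 members called and a member median of 0.03. Genes called numbered 759 with DESeq2, 1056 with voom and library quality weights, 0 with chromosomes X and Y left out (39 members tested) and 4 with all libraries thinned to the shallowest. Leaving out each library in turn gave 1 to 828 genes, 0 to 2 members and medians of -0.12 to 0.092, with 828, 2 and -0.12 in the absence of neonatal replicate 4. Members called numbered 1 with DESeq2 (Mki67) and 2 with voom and library quality weights (Smc2 and Mki67), where the median was -0.13. Without neonatal replicate 4, DESeq2 gave 3320 genes, 12 members and a median of -0.12, and limma voom 928 genes, 2 members and -0.12. Also without it, removing the GC trend gave 44 genes, 0 members and a median of 0.20. The cause of these shifts was not tested. Of 959 pairs of a member and a setting, 19 passed the threshold and 0 of these had the other sign; 105 others had the other sign without passing, and 19 members kept 1 sign in all 24 settings. No paired analysis was possible because the groups share only replicate number 4. The depth of neonatal replicate 4, and 3 libraries a group, limit what small differences could be called.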
